A study of Mus musculus with 6 samples.

Results

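Purinergic signalling lets cells sense nucleotides and adenosine outside the cell. The transcripts described here are those of 9 genes of this system, chosen by symbol from the 55401 genes of the deposited count table. They are 2 ATP-gated channels of the P2X family (P2rx4 and P2rx7), 3 nucleotide receptors of the P2Y family (P2ry2, P2ry6 and P2ry14), 2 adenosine receptors (Adora2a and Adora2b) and 2 enzymes that break down nucleotides at the cell surface (Entpd1 and Nt5e). RNA-seq was done on 3 NETs-treated samples and 3 control samples of mouse cells with wild-type genotype. NETs, neutrophil extracellular traps, are strands of chromatin and granule proteins that neutrophils expel, and the control cells received none. The labels call the cells BMDM (bone marrow-derived macrophages), but the sample titles carry the name of a microglial cell line, BV2. The sources used here give no dose of NETs, no hours of exposure and no age of animals. No label states whether the 3 samples of a group are separate cultures, so the p-values rest on a spread between samples that may be technical.

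Extracellular ATP opens the P2X channels, which let cations into the cell, while P2Y receptors signal through G proteins. P2X7 needs more ATP than its relatives, and in macrophages its opening lets potassium out and starts the NLRP3 inflammasome. The enzyme CD39 (gene Entpd1) turns ATP and ADP into AMP, and CD73 (gene Nt5e) turns AMP into adenosine. The adenosine receptors of Adora2a and Adora2b raise cyclic AMP and are known for damping inflammatory macrophages.

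Total counts ran from 39994613 to 43686531 in the NETs-treated and from 41830940 to 44274445 in the control libraries. All 8 macrophage markers examined passed the filter on low counts. Beside 27.2% lower and 25.5% higher over all genes tested, 7 of them were lower in NETs-treated cells and 1, Lyz2, was higher. Their summed level ran from 4973 to 5165 CPM in NETs-treated and from 5084 to 5245 CPM in control libraries (TMM-scaled CPM, the count as a share of the library size after scaling). Most of this sum was Lyz2, which averaged 3526 CPM in NETs-treated and 2978 CPM in control cells. The sum therefore says little about the other 7. Of 8 microglial markers, 6 were tested, 4 were lower and 1, Tmem119, was higher, and Sall1 was at 0 in every library. Gpr34 and P2ry12, both lower, passed the filter only through the control libraries, so their calls are in part a condition of testing. Among 10 neutrophil markers, 5 were at 0 in every library (S100a9, Ly6g, Mpo, Ngp and Ltf). The neutrophil sum ran from 10.2 to 15.7 CPM in NETs-treated and from 4.78 to 6.85 CPM in control libraries. Most of the NETs-treated sum was S100a8, which averaged 11.7 CPM in NETs-treated and 2.68 CPM in control cells. Only 3 of the 10 were tested, with S100a8 higher, Prtn3 lower and Mmp8 not called. Prtn3 had 19, 0 and 7 reads in NETs-treated and 75, 34 and 57 reads in control libraries. It passed the filter only through the control libraries, so its call is in part a condition of testing. Prtn3 averaged 0.209 CPM in NETs-treated and 1.26 CPM in control cells, and Mmp8 1.03 and 1.80 CPM. The markers of T and NK cells were at 0 throughout, and the sums of the B cell, fibroblast, endothelial and red cell lists stayed at or below 1.23 CPM in every library. The same shares over all genes tested stand beside the microglial and neutrophil counts. The part of these markers' cells in the results was not tested.

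In NETs-treated cells the transcripts of P2rx4, P2rx7 and P2ry6 fell, and those of Entpd1, Adora2a and Adora2b rose. P2ry2 did not pass the test, Nt5e was too low to be tested, and P2ry14 had no read at all. Thus 7 of the 9 genes were tested, and of these 3 were higher and 3 lower at a threshold of 0.05 on the adjusted p. The p was that of the edgeR quasi-likelihood test (n = 3 per group). It was adjusted by Benjamini-Hochberg (BH) over all 15272 genes that passed the filter on low counts. Over all genes tested, 25.5% were higher and 27.2% lower, so calls as such were common in this comparison. Adora2a passed the filter only through the NETs-treated libraries, so its difference was in part a condition of its being tested. The groups did not overlap for 6 of the 7 genes tested, against 62.4% of all genes tested. In bulk RNA, fewer cells that use a gene and less RNA per cell cannot be told apart.

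**Figure D1:**
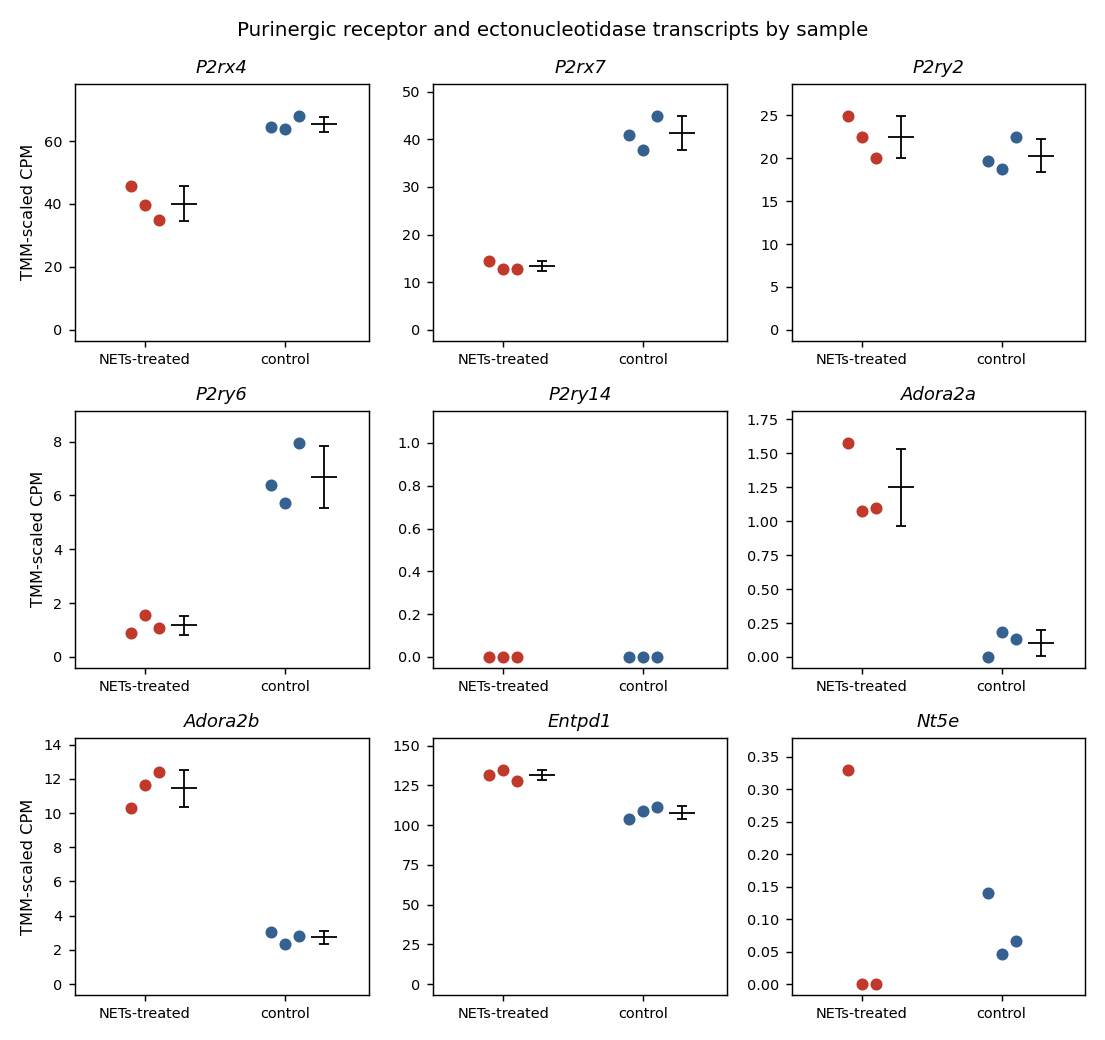
Level of each gene in TMM-scaled CPM (vertical axis, each panel with its own scale from 0) in the 3 NETs-treated (red, left) and 3 control samples (blue, right). Points are samples and black marks are the mean ± SD, left out for P2ry14 and Nt5e. All 3 NETs-treated points lie below the control points for P2rx4, P2rx7 and P2ry6 and above them for Adora2a, Adora2b and Entpd1.

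The stretches before the start of 3 of these genes are shown because P2rx4 and P2rx7 are neighbours that both fell, and Adora2b is the more abundant of the adenosine receptor genes that rose. They are the 250 bases before the gene start in RefSeq (GRCm38.p6), which gave an entry for 7 of the 9 genes. P2ry6 and Adora2a had none. Capitals mark matches on either strand to 5 motifs: TGANTCA (AP-1 factors), TGACG (the half-site of CREB factors), ACGTG (the core of HIF-1 sites), GAGGAAG (PU.1) and the kappa-B motif by name. The P2rx7 stretch lies at chr5:122643677-122643926 (+), that of P2rx4 at chr5:122707294-122707543 (+) and that of Adora2b at chr11:62248734-62248983 (+). P2rx7 had 2 RefSeq entries, and its GENCODE start minus the RefSeq start used was -16 bases. The last bases of its stretch thus lie within the gene as GENCODE places it, and distances below are from the RefSeq start.
P2rx7: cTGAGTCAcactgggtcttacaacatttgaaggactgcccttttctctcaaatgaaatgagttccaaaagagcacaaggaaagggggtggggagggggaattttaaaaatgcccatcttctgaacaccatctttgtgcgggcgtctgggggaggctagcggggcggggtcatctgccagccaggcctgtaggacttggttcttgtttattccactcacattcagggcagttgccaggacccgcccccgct
P2rx4: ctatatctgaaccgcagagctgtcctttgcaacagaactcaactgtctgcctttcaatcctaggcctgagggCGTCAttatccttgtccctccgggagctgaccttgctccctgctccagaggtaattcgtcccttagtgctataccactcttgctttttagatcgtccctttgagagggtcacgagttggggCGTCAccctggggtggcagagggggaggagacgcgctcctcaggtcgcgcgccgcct
Adora2b: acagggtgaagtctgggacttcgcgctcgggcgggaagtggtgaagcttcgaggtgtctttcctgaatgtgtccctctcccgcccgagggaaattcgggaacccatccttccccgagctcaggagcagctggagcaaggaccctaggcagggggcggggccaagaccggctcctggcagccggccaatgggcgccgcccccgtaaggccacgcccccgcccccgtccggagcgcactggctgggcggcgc
The P2rx7 stretch held 1 match to TGANTCA, from 249 to 243 bases before the start, a motif found in 6.75% of all 32851 such stretches in the table. TGANTCA reads the same on both strands, so the match counts once. The P2rx4 stretch held 2 matches to TGACG on the opposite strand, from 178 to 174 and from 57 to 53 bases before the start; 17.8% of all stretches had at least 1. The Adora2b stretch held none of the 5 motifs, of which ACGTG occurred in 16.6%, GAGGAAG in 10.6% and the kappa-B motif in 7.25% of all stretches. No listed match overlapped another motif. A match describes these letters only.

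P2rx7, the ATP-gated channel gene upstream of the NLRP3 inflammasome, fell 3.08-fold. NETs-treated libraries held 14.6, 12.8 and 12.8 CPM of it, and control libraries 40.9, 37.9 and 45.0 CPM. The NETs-treated libraries were close to each other and all lay below the lowest control library. On the log2 scale P2rx7 changed by -1.62 ± 0.11 (SE), at a BH-adjusted edgeR p of 6.29e-06. Of all genes tested, 6.84% fell further by this measure. The gene (ENSMUSG00000029468.17) spans 122643911 to 122691432 on chromosome 5 in GRCm38.

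P2rx4, a channel that responds to lower ATP concentrations and is found largely on lysosomes of macrophages and microglia, fell less in size. It had 45.8, 39.6 and 35.0 CPM in NETs-treated and 64.3, 63.7 and 68.1 CPM in control libraries. The groups did not overlap, and the NETs-treated libraries spread more widely than the control libraries. The log2 fold change was -0.70 ± 0.10 (SE; edgeR, BH-adjusted p = 5.90e-04), a 1.63-fold lower level. P2rx4 (ENSMUSG00000029470.15) spans 122707544 to 122729738 on chromosome 5, beginning 16112 bases beyond the end of P2rx7 on the same strand.

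Within a sample, the count of P2rx7 divided by that of P2rx4 is free of the scaling between libraries. This ratio, chosen after the values were seen, was 0.318, 0.324 and 0.365 in the NETs-treated libraries and 0.636, 0.594 and 0.661 in the control libraries. The ratio of every NETs-treated library was below that of every control library, a mean difference of -0.91 on the log2 scale (two-sided exact permutation test, p = 0.1, the smallest that 3 against 3 samples allow, for both of the ratios computed). The nearest protein-coding gene on the other side of P2rx4, Camkk2 (a calcium-dependent kinase gene), had a log2 fold change of -0.53 ± 0.09, and Ift81, the nearest before P2rx7, of -0.46 ± 0.13.

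The other P2X receptor genes were close to the limit of detection. Of 5 genes, 2 passed the filter and 0 rose, where 25.5% of all genes tested were higher and 27.2% lower. P2rx1 and P2rx3 fell, and because both passed the filter only through the control libraries, these calls are in part a condition of testing. P2rx1, the channel gene known from platelets and smooth muscle, had 0.306, 0 and 0.128 CPM in NETs-treated and 1.05, 0.998 and 1.17 CPM in control libraries (log2 fold change -2.85 ± 0.85, SE). That call was lost when any 1 control library was left out and when no filter was used (adjusted p between 0.0523 and 0.0672). Its log2 fold change was -3.99 without NETs-treated replicate 1 and -2.27 without NETs-treated replicate 2. P2rx3, a channel gene known from sensory neurons, was at 0, 0.175 and 0 CPM in NETs-treated and at 1.58, 2.00 and 1.39 CPM in control libraries. Without NETs-treated replicate 2, all counts of P2rx3 in that group were 0. Its locus overlaps Ssrp1 on the opposite strand, which had 179.6 CPM or more in every library, and the strand setting of the counting is not given in the sources used here.

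**Figure D2:**
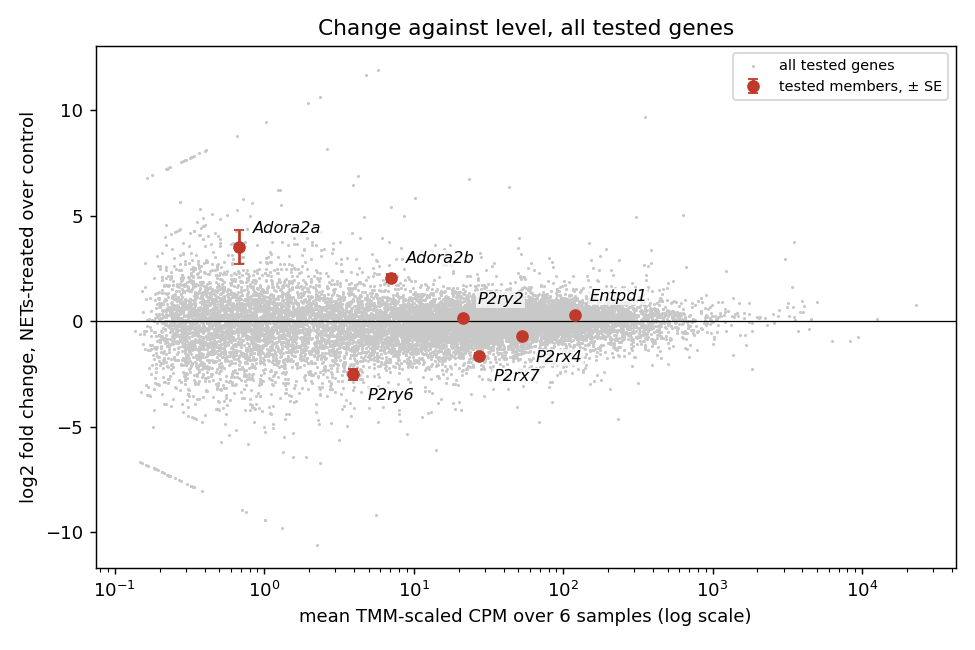
Log2 fold change of NETs-treated over control (vertical axis) against the mean TMM-scaled CPM over all samples (horizontal axis, log scale) for all 15272 genes tested (grey) and the 7 tested purinergic genes (red, with SE). Adora2a and Adora2b lie near the upper edge of the cloud and P2ry6 near the lower edge, while Entpd1 and P2ry2 lie close to 0.

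Among the P2Y receptors, P2ry6 fell and P2ry2 did not pass the test. P2ry6, the receptor for UDP that microglia are known to use in taking up damaged cells, had 0.894, 1.55 and 1.07 CPM in NETs-treated and 6.37, 5.71 and 7.95 CPM in control libraries. Its highest NETs-treated library lay well under its lowest control library. P2ry6 had a log2 fold change of -2.51 ± 0.27 (SE; edgeR, BH-adjusted p = 1.10e-04), a 5.70-fold lower level, and 2.56% of all genes tested fell further. The gene (ENSMUSG00000048779.5) spans 100937630 to 100974649 on chromosome 7.

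P2ry2, the receptor for ATP and UTP that draws phagocytes towards dying cells, had 25.0, 22.4 and 20.0 CPM in NETs-treated and 19.7, 18.8 and 22.4 CPM in control libraries. The groups overlapped. The log2 fold change was 0.15 ± 0.12 (SE), with a BH-adjusted edgeR p of 0.336. P2ry2 (ENSMUSG00000032860.5) spans 100996568 to 101012866 on chromosome 7, with a gap of 21919 bases to P2ry6 on the same strand. The count of P2ry6 divided by that of P2ry2, a ratio also chosen after the values were seen, was computed within each sample. It was 0.0358, 0.0690 and 0.0535 in NETs-treated and 0.324, 0.304 and 0.355 in control libraries. The mean difference was -2.68 on the log2 scale (exact permutation test, two-sided p = 0.1, the smallest possible here).

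P2ry14, the receptor for UDP-glucose and other UDP-sugars, had 0 reads in all 6 libraries. That allows up to 0.0246 CPM in NETs-treated and 0.0228 CPM in control cells (3 counts over a group, counting error only). It lies on chromosome 3 from 59113855 to 59153618 and overlaps Med12l, a Mediator subunit gene on the opposite strand. Med12l had 1.13, 0.923 and 1.25 CPM in NETs-treated and 11.7, 14.1 and 10.3 CPM in control libraries.

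All 4 of the other P2Y-family genes that passed the filter, of 6 listed, were lower and 0 were higher. Lower calls made up 27.2% of all genes tested. P2ry1, a Gq-coupled receptor for ADP, had 3.39, 3.29 and 3.27 CPM in NETs-treated and 7.70, 7.12 and 5.18 CPM in control libraries (log2 fold change -1.01 ± 0.21, SE; edgeR, BH-adjusted p = 0.00339). Every NETs-treated library lay below every control library. The antisense gene Gm37035 overlaps P2ry1 and had 0.470, 0.673 and 0.153 CPM in NETs-treated and 1.09, 1.14 and 1.08 CPM in control libraries. P2ry12 and P2ry13, both Gi-coupled ADP receptors and P2ry12 a microglial marker, overlap Med12l as P2ry14 does. P2ry12 averaged 0.129 ± 0.113 CPM in NETs-treated and 0.878 ± 0.195 CPM in control cells (SD, n = 3 each). P2ry13 was at 0.0706, 0 and 0 CPM in NETs-treated and at 0.581, 0.812 and 0.837 CPM in control libraries, and without NETs-treated replicate 1 all its counts in that group were 0.

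P2ry12 and P2ry13 passed the filter through the control libraries only, and the part of Med12l reads in their values was not tested. The call of P2ry12 was lost without any 1 control library, without NETs-treated replicate 2 and with no filter (adjusted p between 0.0550 and 0.0878). P2ry10b, a relative of P2ry10, had a log2 fold change of -0.39 ± 0.14 (SE), a call lost in 8 of 15 alternative settings (adjusted p up to 0.135).

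Both adenosine receptor genes among the 9 rose. Adora2b, whose receptor has a low affinity for adenosine and couples to Gs, had 10.3, 11.6 and 12.4 CPM in NETs-treated and 3.05, 2.34 and 2.80 CPM in control libraries. The lowest NETs-treated library was above the highest control library. Adora2b had a log2 fold change of 2.07 ± 0.17 (SE; edgeR, BH-adjusted p = 2.58e-05), a 4.19-fold higher level. Of all genes tested, 2.45% rose further. Adora2b (ENSMUSG00000018500.2) spans 62248984 to 62266453 on chromosome 11. Its nearest neighbour Zswim7 lies 771 bases beyond its end on the opposite strand, and that gene had a log2 fold change of -0.31 ± 0.20.

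Adora2a, whose receptor has a high affinity for adenosine and also couples to Gs, had 67, 43 and 43 reads in the NETs-treated and 0, 8 and 6 reads in the control libraries. In scaled units this was 1.58, 1.07 and 1.10 CPM in NETs-treated and 0, 0.186 and 0.132 CPM in control libraries. The groups did not overlap, but the control level rests on 14 reads in all. The log2 fold change was 3.52 ± 0.80 (SE; edgeR, BH-adjusted p = 0.00604). Its size depended on the control libraries, with 2.95 without control replicate 1 and 4.16 without control replicate 2. The gene (ENSMUSG00000020178.6) spans 75316877 to 75334784 on chromosome 10.

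Of the other adenosine receptor genes, Adora1 had 0 reads in every library. Adora3, a Gi-coupled receptor gene, had 0.353, 0 and 0 CPM in NETs-treated and 0.372, 0.186 and 0.308 CPM in control libraries, which overlap. It did not pass (edgeR, BH-adjusted p = 0.42), and without NETs-treated replicate 1 its counts in that group were all 0 and the adjusted p was 0.0140.

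Entpd1, which encodes the ATP- and ADP-degrading enzyme CD39, was the most abundant of the 9 transcripts per length and rose by a small amount. It had 132, 135 and 128 CPM in NETs-treated and 104, 109 and 111 CPM in control libraries. The groups did not overlap, and both varied little. Entpd1 had a log2 fold change of 0.28 ± 0.06 (SE; edgeR, BH-adjusted p = 0.00600), a 1.22-fold higher level, and 33.4% of all genes tested had a larger rise. The gene (ENSMUSG00000048120.16) spans 40612366 to 40741602 on chromosome 19. The annotated pseudogene Gm8783 overlaps it on the same strand, with 4.26 to 5.11 CPM in NETs-treated and 3.49 to 4.63 CPM in control libraries. Tctn3, a ciliary gene on the opposite strand 133 bases from Entpd1, had 28.1, 35.1 and 35.4 CPM in NETs-treated and 14.4, 16.4 and 17.8 CPM in control libraries (log2 fold change 1.02 ± 0.13, SE).

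Nt5e, which encodes the AMP-degrading enzyme CD73, had 14, 0 and 0 reads in NETs-treated and 6, 2 and 3 reads in control libraries. All reads of the NETs-treated group came from replicate 1. The gene did not pass the filter, and with no filter it had a BH-adjusted edgeR p of 0.903, so a difference was not detectable at this depth. Nt5e (ENSMUSG00000032420.8) spans 88327197 to 88372092 on chromosome 9.

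Levels of different genes were compared per length, in TMM-scaled reads per kilobase of annotated exon, scaled to library size as CPM is (RPKM, computed here). In NETs-treated cells Entpd1 stood highest at 23.6 ± 0.582 RPKM (SD, n = 3). Adora2b at 6.20 ± 0.578, P2ry2 at 5.72 ± 0.625 and P2rx4 at 5.71 ± 0.772 RPKM followed and did not differ beyond their spread. P2rx7 came next at 2.24 ± 0.169 RPKM. Adora2a at 0.408 ± 0.0926 and P2ry6 at 0.406 ± 0.117 RPKM were alike within their spread. In control cells the order was Entpd1 at 19.3 ± 0.695, P2rx4 at 9.30 ± 0.334, P2rx7 at 6.91 ± 0.596, P2ry2 at 5.17 ± 0.483, P2ry6 at 2.31 ± 0.400, Adora2b at 1.48 ± 0.193 and Adora2a at 0.0346 ± 0.0312 RPKM (SD, n = 3). Nt5e came after these at 0.0128 RPKM in NETs-treated and 0.00977 RPKM in control cells, and P2ry14 was at 0. By this measure Adora2b stood in the group next to Entpd1 in NETs-treated cells and sixth in control cells. With the length of the longest transcript in place of all exons, P2rx4 (10.3 RPKM) and P2ry2 (7.46 RPKM) stood above Adora2b (6.20 RPKM) in NETs-treated cells.

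**Figure D3:**
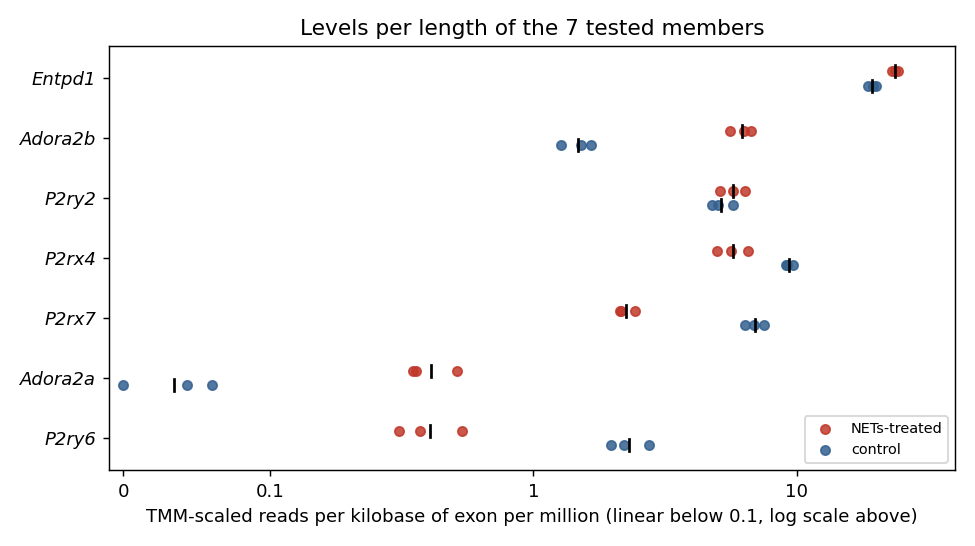
TMM-scaled RPKM (horizontal axis, linear below 0.1 and log scale above) for the 7 tested genes, ordered by their mean in NETs-treated cells. Points are samples (red NETs-treated, above; blue control, below) and black ticks are means; Entpd1 is highest in both groups, with 23.6 and 19.3 RPKM.

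The genes with the profile most like those of the largest rise and the largest fall were found by the Euclidean distance over the 6 samples of log2(CPM + 0.5), centred on the control mean, among genes whose mean level reached 10 CPM. Closest to P2ry6 were Htra1 (a secreted protease gene) at a distance of 0.293, Glrp1 at 0.324 and Rasgef1b (a Ras exchange factor gene) at 0.363. Htra1 averaged 4.40 ± 1.12 CPM in NETs-treated and 20.9 ± 2.43 CPM in control cells. Closest to Adora2a were Pilrb1 at 0.301, Atp10d at 0.391 and St3gal1 at 0.393. The added 0.5 compresses the change of a gene as low as Adora2a, so these 3 genes had smaller log2 fold changes in the edgeR fit (1.52 for Pilrb1 and 1.44 for St3gal1, against 3.52 for Adora2a).

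Of 17 other genes for enzymes that act on extracellular or luminal nucleotides, 8 passed the filter, 5 fell, 1 rose and 2 were not called. Their median log2 change was -0.47, against -0.02 over all genes tested, of which 27.2% were lower and 25.5% higher. Alpl, the alkaline phosphatase that can strip phosphates from ATP down to adenosine, had 7.86, 6.86 and 5.70 CPM in NETs-treated and 24.0, 21.5 and 22.8 CPM in control libraries. The groups were far apart, and its log2 fold change was -1.74 ± 0.14 (SE; edgeR, BH-adjusted p = 2.26e-05). Bst1, which encodes the NAD-degrading surface enzyme CD157, had a log2 fold change of -1.24 ± 0.19; Fbxl5, which overlaps it on the opposite strand, had 0.89 ± 0.09.

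Entpd5 and Entpd6, relatives of CD39 that act on nucleoside diphosphates in the secretory pathway, had log2 fold changes of -0.78 ± 0.09 and -0.60 ± 0.14 (SE). The related Entpd7 averaged 39.8 ± 6.20 CPM in NETs-treated and 30.1 ± 0.510 CPM in control cells (SD, n = 3 each). Its call was lost without NETs-treated replicate 2 or any 1 control library (adjusted p between 0.0597 and 0.0752). Entpd2, Entpd3, Enpp1, Enpp2, Enpp3 and Enpp5 had 0 reads in every library.

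Of 13 genes for the removal and uptake of adenosine, 9 passed the filter, 5 fell and 3 rose (median log2 change -0.32). Among all genes tested, 27.2% were lower and 25.5% higher. Slc29a1, the main equilibrative transporter of nucleosides, had 90.8, 89.3 and 85.7 CPM in NETs-treated and 180.0, 184 and 173 CPM in control libraries. It fell by 1.02 ± 0.06 (SE) on the log2 scale, with groups that did not overlap. The sodium-driven nucleoside transporter gene Slc28a2 averaged 0.323 ± 0.221 CPM in NETs-treated and 2.46 ± 0.890 CPM in control cells (log2 fold change -2.93 ± 0.55, SE, and -3.57 without NETs-treated replicate 3). Slc28a2 passed the filter only through the control libraries, so its call is in part a condition of testing. Pnp, which cleaves inosine and guanosine, had 115, 124 and 145 CPM in NETs-treated and 50.7, 48.7 and 52.6 CPM in control libraries, a log2 fold change of 1.34 ± 0.10.

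Pnp2, a near copy that overlaps Pnp, had 5.34, 5.39 and 6.38 CPM in NETs-treated and 0.279, 2.09 and 0.264 CPM in control libraries, and the split of reads between these genes is uncertain. Its log2 fold change of 2.70 was 4.37 without control replicate 2. The adenosine deaminase gene Ada had 2.22 ± 0.697 CPM in NETs-treated and 2.07 ± 0.219 CPM in control cells and did not pass (edgeR, BH-adjusted p = 0.805). Ada was named for its role, after its value was seen.

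Genes for the release of nucleotides went both ways. Of 13 listed, 8 passed the filter, 4 rose and 3 fell (median log2 change 0.31), beside 25.5% higher and 27.2% lower over all genes tested. The 4 that rose were Lrrc8a, Lrrc8b, Lrrc8c and Lrrc8d, subunits of the volume-regulated anion channel. Lrrc8c rose most among these, to 77.8 ± 5.20 CPM in NETs-treated cells, against 47.5 ± 1.79 CPM in control cells (SD, n = 3 each; log2 fold change 0.71 ± 0.08, SE). Ank, a membrane protein gene needed for the export of ATP and pyrophosphate, averaged 30.5 ± 1.34 CPM in NETs-treated and 116 ± 2.31 CPM in control cells (SD, n = 3 each). Ank had a log2 fold change of -1.93 ± 0.07 (SE; edgeR, BH-adjusted p = 4.06e-07). Slc17a9, the transporter that loads ATP into vesicles, changed by -1.31 ± 0.14 on the log2 scale, and the channel gene Calhm2 by -0.85 ± 0.16. Panx1, the pannexin channel gene and named here for its role after its value was seen, averaged 9.10 ± 1.45 CPM in NETs-treated and 7.32 ± 0.873 CPM in control cells and did not pass (edgeR, BH-adjusted p = 0.159).

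**Figure D4:**
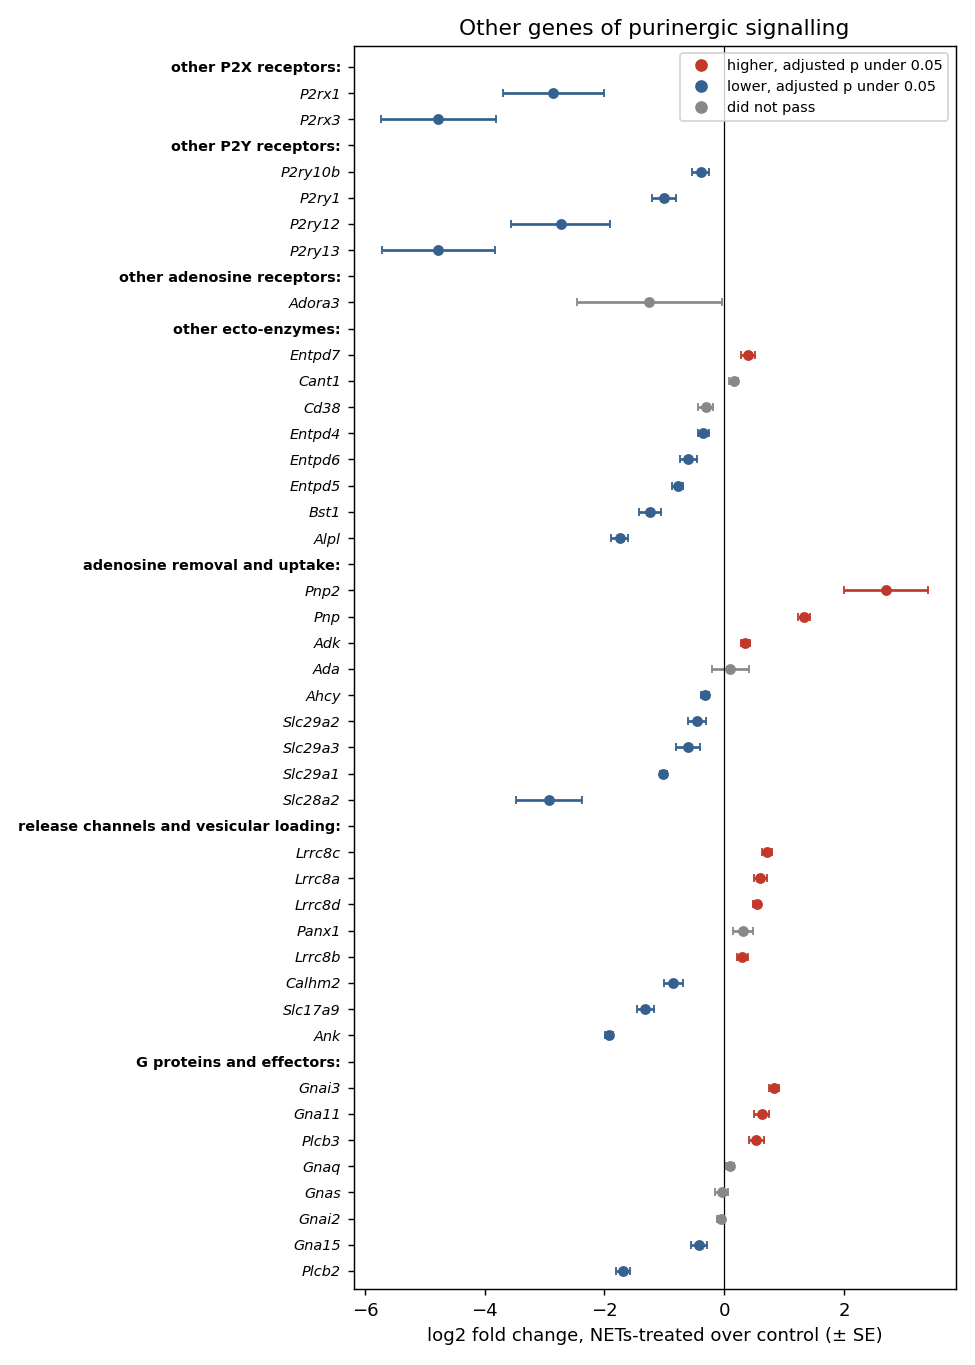
Log2 fold change of NETs-treated over control with its SE (horizontal axis) for the 40 tested genes of 7 lists of other purinergic genes, grouped by list. Red genes were higher and blue genes lower at an adjusted p under 0.05, and grey genes did not pass; the tested P2X and P2Y genes are all blue, and the Lrrc8 genes are red.

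Of 10 genes for G proteins and effectors that these receptors couple to, 8 passed the filter, 3 rose and 2 fell (median log2 change 0.03). Plcb2, a phospholipase C that Gq and Gi signals activate, had 79.4, 62.6 and 57.7 CPM in NETs-treated and 225, 212 and 211 CPM in control libraries (log2 fold change -1.70 ± 0.12, SE). Where genes overlap on opposite strands, as Plcb3 does with Ppp1r14b, Ank with Otulin, Calhm2 with Pdcd11 and Entpd7 with Cox15, their reads could not be told apart without a known strand setting. Its relative Plcb3 had a log2 fold change of 0.54 ± 0.13, Gnai3 (a Gi subunit) of 0.83 ± 0.09 and Gna11 (a Gq-family subunit) of 0.62 ± 0.13. Gna15, a Gq-family subunit of blood cells, had -0.42 ± 0.14, a call lost without any 1 control library and with no filter (adjusted p between 0.0511 and 0.0918). Over all 7 lists, 40 of 66 genes passed the filter, 11 rose and 21 fell (median log2 change -0.37). The shares over all genes tested were 25.5% higher and 27.2% lower, which also stand beside the counts of this list. Of the 40 genes, 5 passed the filter only through the control libraries, and all 5 fell.

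Of 4 genes through which P2X7 is known to act, 2 rose, 1 did not pass and 1 was too low to be tested. Higher calls made up 25.5% of all genes tested. Nlrp3, the sensor of the inflammasome, had 370.4, 340.2 and 297.9 CPM in NETs-treated and 118.5, 108.5 and 110.3 CPM in control libraries, a log2 fold change of 1.58 ± 0.09 (SE). Il1b, the cytokine that the inflammasome matures, had a log2 fold change of 6.36 ± 0.24. Casp1, its protease, averaged 17.8 ± 1.19 CPM in NETs-treated and 21.5 ± 3.09 CPM in control cells and did not pass (edgeR, BH-adjusted p = 0.101). Pycard, the adaptor that joins NLRP3 to caspase-1, was almost undetected, with 14, 11 and 6 reads in NETs-treated and 4, 0 and 0 reads in control libraries.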

How the data were processed

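RNA-seq of 3 NETs-treated and 3 control samples was analysed from 1 table of 55401 genes. Per the labels' protocols, the libraries were strand-specific. HISAT2, DESeq2, mm10 and rn6 appear in the submitters' processing notes, with no role. How reads were counted, by which strand rule and on which annotation, is not given in the sources used here. The authors deposited raw read counts and a normalised signal, which was checked to be each sample's counts over a single size factor. The log2 fold changes and p-values of the authors' own comparison, deposited beside these, served as an alternative.

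All samples entered one two-sided quasi-likelihood fit (edgeR 4.0.16, R 4.3.3) on the counts, without covariates and with TMM scaling. Low genes were removed with filterByExpr (count 10, total 15), leaving 15272 genes. P-values were adjusted over all of these by the Benjamini-Hochberg method, with a threshold of 0.05. The SE was taken from the log2 fold change and its F statistic. The test was checked on simulated data. No replicate pair was a duplicate library, since the chi-square per gene between replicates was at least 9.38. All columns of per-sample values were used. The summed level of the microglial markers is not reported here. Reads without molecular identifiers can be PCR copies, and limits from 0 reads cover counting error only.

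The genes and lists were chosen with earlier results of these data known. All 9 genes are described; from each list the text names up to 4 called genes with the largest change and up to 2 against the majority, or the 2 most abundant tested genes where none passed, and Il1b, Nlrp3, Casp1 and Pycard. Genes outside this rule are named as neighbours, markers or similar profiles, as genes at 0, or after their values were seen, as the text says (also Lrrc8a, Lrrc8b and Lrrc8d). Positions, neighbours and exon lengths come from GENCODE M21 (GRCm38), which holds all 9 gene identifiers in the same version, and sequences from RefSeq. Alternatives were scaling by upper quartile, by library size only or by DESeq2 size factors, the DESeq2 1.42.0 Wald test, limma-voom (limma 3.58.1), a filter at CPM 1 in 3 samples or none, a block for the replicate number, each sample left out in turn, the authors' deposited table and, for levels per length, the longest transcript.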

Additional observations from a re-analysis of the deposited data

How the results depend on the processing

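The 6 calls among the 9 genes and the missing call of P2ry2 kept their direction and their side of the threshold in all 15 alternative settings, the authors' deposited table among them. The log2 fold change ranged from -1.70 to -1.56 for P2rx7, from -0.79 to -0.61 for P2rx4, from -2.74 to -2.33 for P2ry6, from 0.21 to 0.32 for Entpd1, from 1.97 to 2.16 for Adora2b and from 2.95 to 4.16 for Adora2a. P2ry2 had an adjusted p of at least 0.121 in these settings. Leaving out 1 sample at a time gave between 9 and 11 higher and between 14 and 21 lower calls among the other purinergic genes. The same moved the log2 ratio of P2rx7 over P2rx4 between -0.97 and -0.87 and that of P2ry6 over P2ry2 between -2.90 and -2.43. With the longest transcript in place of all exons, 5 of the 9 genes kept their rank of level per length in NETs-treated cells: P2rx4 came to 10.3, P2ry2 to 7.46 and Adora2b to 6.20 RPKM, and P2ry6 to 0.602 and Adora2a to 0.481 RPKM. In control cells all 9 kept it. The median log2 fold change over all genes was -0.09 with scaling by library size only. That setting also brought Casp1 past the threshold (log2 fold change -0.35, adjusted p = 0.0468, edgeR's quasi-likelihood test). Among the other named genes, 390 values under alternatives kept their direction and side of the threshold, 25 lost a call and 2 gained one; the cause was not tested.

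Whether samples with the same replicate number were paired is not given in the sources used here. Their deviations from the group means correlated by 0.206, 0.0280 and 0.0759, and not every sample correlated best with its own number. With 3 samples per group these correlations are not independent and cannot settle whether the samples were paired. With the replicate block, 3896 genes were higher and 4209 lower, against 3896 and 4155 without it, and the same 3 and 3 of the 9 genes were called. The numbers of reads limit Adora2a, Nt5e, P2ry14 and the low P2X and P2Y genes.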
